A study of Drosophila melanogaster with 2 samples.

Results

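The genes described here make the autophagosome and acidify the lysosome: the autophagy-related (Atg) genes and the genes for subunits of the vacuolar proton pump (V-ATPase, Vha) of *Drosophila melanogaster*. They were chosen by name, as every protein-coding gene on the main chromosome arms whose Ensembl symbol starts with Atg and a digit, or with Vha. The rule found 53 of 13945 protein-coding genes, of which 20 were Atg and 33 were Vha genes. The measurement was chromatin immunoprecipitation with sequencing (ChIP-seq) of Zfh2, a protein with zinc fingers and homeodomains, carried as a stable transgene with eGFP at its C terminus and precipitated with an antibody against GFP. Whole embryos of both sexes, collected between 0 and 24 h of development, gave 2 libraries in 1 group, called biological replicates 1 and 2. No untreated or mutant group was compared, and the sequence that drives the transgene is not given in the sources used here. A peak is therefore a value over all tissues and embryonic stages, and strong binding in few cells and weak binding in many cells cannot be told apart.

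Autophagy wraps cytoplasm in a double membrane and delivers it to the lysosome. A kinase complex around Atg1 starts the process, a lipid kinase complex marks the membrane, Atg9, Atg2 and Atg18 proteins supply lipid, and a pair of ubiquitin-like systems attaches Atg8 to the membrane. The V-ATPase is a rotary pump: its V1 sector splits ATP in the cytosol, and its Vo sector carries protons through the membrane of lysosomes, endosomes and some plasma membranes. In the fly, many pump subunits are encoded by 1 broadly expressed gene and by paralogs known mainly from testis or from a few other tissues. The transcription factor Mitf, the fly relative of mammalian TFEB, is known to regulate V-ATPase genes and autophagy.

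The windows below show what lay under the summits, the positions of highest signal, at some of the members with the strongest reproducible peaks and at some of those holding a searched word. Each runs 5′ to 3′ on the member's own strand, 50 bp to either side of the summit where no annotated untranslated region cut it shorter, on the dm6 build with bases from RefSeq's copy of that assembly. Capitals mark a searched word, read on either strand: TAATTA, a homeodomain core; TATCGATA, the DNA replication-related element; or GGTCACAC, known at promoters bound by M1BP.
Atg17 (chr3R:5669353-5669453, plus strand): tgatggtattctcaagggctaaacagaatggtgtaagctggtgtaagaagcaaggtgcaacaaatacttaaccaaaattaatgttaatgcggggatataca
Vha68-1 (chr2L:13004141-13004241, minus strand): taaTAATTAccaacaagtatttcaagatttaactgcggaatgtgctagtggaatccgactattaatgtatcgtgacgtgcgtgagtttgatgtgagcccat
Atg2 (chr3L:2774041-2774141, plus strand): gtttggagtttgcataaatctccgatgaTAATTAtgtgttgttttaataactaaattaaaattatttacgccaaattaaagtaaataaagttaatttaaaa
Vha55 (chr3R:12627830-12627928, minus strand): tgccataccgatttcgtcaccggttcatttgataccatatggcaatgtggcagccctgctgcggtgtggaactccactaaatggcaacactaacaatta
Vha16-5 (chr2L:10737291-10737344, minus strand): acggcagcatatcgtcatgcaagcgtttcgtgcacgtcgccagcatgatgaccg
Vha68-2 (chr2L:12974129-12974229, plus strand): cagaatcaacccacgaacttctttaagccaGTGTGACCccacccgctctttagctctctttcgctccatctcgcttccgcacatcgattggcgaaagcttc
VhaAC39-2 (chr3R:23157887-23157987, minus strand): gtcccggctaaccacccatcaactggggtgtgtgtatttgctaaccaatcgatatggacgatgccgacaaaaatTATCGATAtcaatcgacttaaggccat

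The values came from 4 peak lists on dm6. Replicate 1 had 30000 relaxed calls, replicate 2 had 29690, and both replicates pooled had 30000; relaxed lists hold background together with sites. A list of 4344 peaks passed the submitters' threshold on the irreproducible discovery rate (IDR), and these were the 4344 strongest pooled calls. Each call carries the authors' signal value, a score whose units are arbitrary, which serves below to describe and rank calls within a list. A value given for a peak is its IDR signal, followed by the signals of the replicate calls that hold the same summit. IDR signals ran from 64.9 to 2951 with a median of 113. Read numbers were not used, so the depth is unknown, and nothing in the labels says how far apart the replicates' collections were.

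An IDR summit lay in the body of the gene or within 1 kb of it for 29 of the 53 members (54.7%), beside 33.4% of all protein-coding genes. The share was 13 of 20 Atg genes (65.0%) and 16 of 33 Vha genes (48.5%), where 1 gene is worth 5% of the first list and 3.03% of the second. Among the Vha genes, it was 11 of 14 broadly expressed genes (78.6%) and 4 of 16 tissue-restricted paralogs (25.0%). At the share of all genes these lists would hold 4.67 and 5.34 called genes. By this rule the restricted paralogs were thus within about 1 gene of the background, and the broadly expressed genes were not. The distance of the broadly expressed genes from the background depended on the rule. Giving each summit to the nearest TSS alone called 5 of them (35.7%), beside 22.4% of all genes. With the summit inside the gene, 2 were called (14.3%), beside 11.7%. The remaining 3 Vha genes, Vha68-1, Vha100-1 and VhaM9.7-a, were put in neither class, and 1 of them, Vha68-1, had an IDR peak. The classes came from background knowledge of where the genes are expressed, not from these data. These are shares of fixed lists, given without a test.

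**Figure D1:**
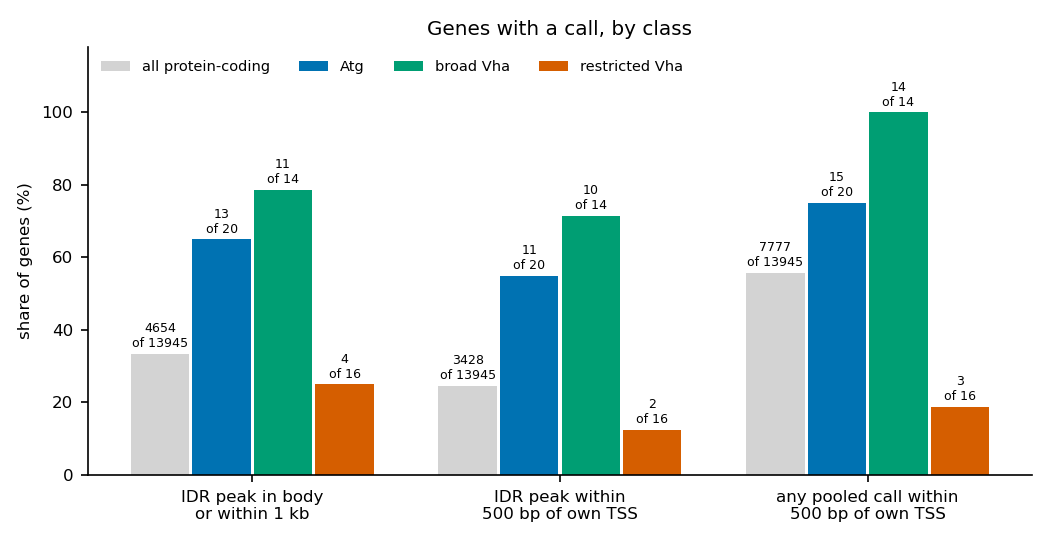
Share of genes (%, y axis from 0) with an IDR summit in the body or within 1 kb, with an IDR summit within 500 bp of an own TSS, and with any pooled call within 500 bp of an own TSS, as bars for all protein-coding genes, Atg genes, broadly expressed Vha genes and restricted Vha paralogs, with the counts above each bar. Broadly expressed Vha genes reach 78.6% by the first rule beside 33.4% of all genes, and restricted paralogs, at 4 of 16, are about 1 gene from that share.

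The peaks sat mostly at promoters, at members as at all genes. An IDR summit within 500 bp of an own transcription start site (TSS) was found at 24 of 53 members (45.3%), beside 24.6% of all genes. Among genes with an IDR peak, these were 24 of 29 members, beside 3428 of all 4654 genes. Restricted paralogs had one in 2 of 16 cases (12.5%) and broadly expressed Vha genes in 10 of 14 (71.4%). With the margin reduced to 0 bp, so that the summit had to lie inside the gene, 7 members (13.2%) were called beside 11.7% of all genes: 5 Atg genes, 2 broadly expressed Vha genes and 0 restricted paralogs.

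Of the 29 strongest summits, 1 for each member with an IDR peak, 23 lay within 500 bp of an own TSS. All but 1 of these were upstream of it, with a median position of 112 bp before the start. The side and distance were not counted for all genes. For 12 of the 23 the nearest TSS was the member's own, and for the other 11 a neighbour's TSS was nearer. Counting all 29 members, the strongest summit had an own TSS as its nearest in 13 cases (44.8%), beside 56.1% of all genes with an IDR peak. Giving each summit only to the gene with the nearest TSS left 15 members called (28.3%), beside 22.4% of all genes.

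**Figure D2:**
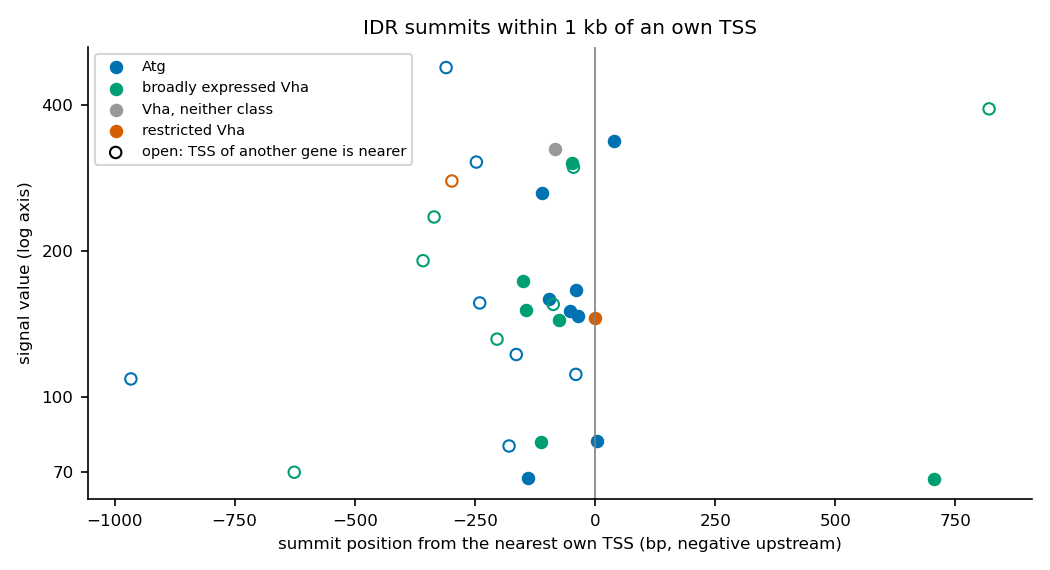
IDR summits of members that lie within 1 kb of an own TSS, by distance in bp from the nearest own TSS (x axis, negative is upstream) and signal (y axis, log scale), coloured by class and open where another gene's TSS is nearer. The points gather upstream of 0, and open points include Atg17 at 479.

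Many members share their promoter region with a gene on the other strand. A protein-coding TSS within 500 bp upstream and pointing away was present at 25 of 53 members (47.2%), beside 27.4% of all genes. It was present at 12 of 20 Atg genes, at 8 of 14 broadly expressed Vha genes and at 2 of 16 restricted paralogs. Of the 25 with such a partner, 18 had an IDR summit within 500 bp of their own TSS (72%), beside 50.9% of all genes with a partner. Of the 28 without one, 6 had such a summit (21.4%), beside 14.7% of all genes without a partner. Among those without a partner, 4 of the 6 called were broadly expressed Vha genes, of 6 in that class, while 1 of 8 Atg genes (12.5%) and 1 of 14 restricted paralogs (7.14%) were called. Among those with a partner, 10 of 12 Atg genes (83.3%), 6 of 8 broadly expressed Vha genes (75%) and 1 of 2 restricted paralogs (50%) were called. Over all members, and over all genes, the gap between genes with and without a partner was larger than that between members and all genes. Within the broadly expressed Vha genes it was not, at 75% with a partner and 66.7% without. Whether partners account for the shares of members was not tested.

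Genes differ in length, and longer genes offer more room for a summit. The median length was 1336 bp for restricted paralogs, 2907 bp for broadly expressed Vha genes, 3405 bp for Atg genes and 2166 bp for all protein-coding genes. Among genes shorter than 1000 bp, 5 of 11 members had an IDR peak beside 14.7% of all genes. From 1000 to 2000 bp it was 6 of 12 beside 27.6%, from 2000 to 5000 bp 10 of 19 beside 38.0%, and above that 8 of 11 beside 48.8%. Restricted paralogs were called in 3 of 7 cases in the shortest band, 1 of 5 in the next, 0 of 3 in the third band and 0 of 1 in the longest. At the all-gene share of each band, 4.04 of the 16 restricted paralogs would be called, which is the count seen, and 5 of the 14 broadly expressed Vha genes, where 11 were seen.

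The initiation complex had an IDR peak at 3 of its 4 genes, beside 33.4% of all genes. Atg17, the scaffold that holds the complex, had the strongest peak of all 53 members, at 479 (205 in replicate 1 and 282 in replicate 2). Its summit lay 310 bp upstream of Atg17 and 69 bp upstream of Xe7, the gene on the other strand, and a second summit in the same interval (3R, 5669248 to 5669686) lay 110 bp upstream of Atg17. Atg1, the kinase itself, had a strongest signal of 160 (88.5 and 73.4 in replicates 1 and 2), in an intron 1294 bp past its start. Atg1 had 3 IDR summits in all, none within 500 bp of its start. Atg13, the kinase's regulatory partner, was just inside the IDR threshold at 67.9, with its summit 140 bp upstream of the start. That summit was in a replicate 2 call of 62.4 and in no replicate 1 call. Atg101, which stabilises Atg13 in mammals, had no call in any list.

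The lipid kinase complex split. Atg6, the Beclin homologue, had a peak of signal 111 (74.8 in replicate 1 and 40.6 in replicate 2) 40 bp upstream of its start. That start lies next to the start of Pisd on the other strand. The summit was 39 bp inside Pisd, whose start was the nearest. Atg14, which directs the complex to autophagosome formation, had no IDR peak. Its best pooled call, 59.0, lay 27 bp upstream of its TSS and ranked 4850, outside the 4344 IDR peaks.

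All 4 genes of lipid supply had IDR peaks, beside 33.4% of all genes. They were Atg9, the lipid scramblase of the seed vesicles, Atg2, the lipid transfer protein, and the phosphoinositide-binding Atg18a and Atg18b. At Atg18a the summit lay 40 bp inside the transcript, in the 5′ UTR, with a signal of 337 (143 in replicate 1 and 200 in replicate 2). At Atg2 the signal was 305 (103 in replicate 1 and 207 in replicate 2), 247 bp upstream of Atg2 and 84 bp upstream of CG12093 on the other strand, and a second summit lay 39 bp upstream of Atg2. Both genes thus had promoter peaks in the upper part of the list, each higher in replicate 2. Atg9 had 151 (54.3 and 95.7 in replicates 1 and 2) at 52 bp upstream. Atg18b differed in place: its summit, of signal 117 (65.2 and 48.7), lay in an intron 5450 bp past its start and 56 bp inside the small nuclear RNA gene snRNA:U4:39B.

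Of the 10 conjugation genes, 5 had an IDR peak, beside 33.4% of all genes, a difference of few genes. All 5 had one within 500 bp of an own TSS, beside 24.6% of all genes. Atg7, the activating enzyme of both ubiquitin-like systems, had its strongest summit (169; 116 in replicate 1 and 50.8 in replicate 2) in an intron, 46 bp upstream of CG5335. Its promoter summit was weaker, at 122, and lay 41 bp upstream of Sec6. Atg8a, the ubiquitin-like protein that is joined to the membrane, had 160 (120 in replicate 1 and 41.3 in replicate 2) at 95 bp before 1 of its starts. Atg4b, a protease that trims Atg8, had 156 (69.8 and 92.1) between its own start, 240 bp away, and that of Hibch, nearer at 65 bp. Atg5 and Atg12, which are coupled to each other, had 147 (83.4 and 61.7) and 79.1 (30.1 and 51.9), at 35 and 179 bp upstream. For Atg12 the start of CG5645 was nearer.

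The other 5 conjugation genes had pooled calls only. Atg16, the partner of the Atg5 and Atg12 pair, came just outside the IDR threshold with a pooled signal of 63.8 at rank 4438, 21 bp upstream of its TSS. The best pooled calls of the others were 37.8 for Atg3, the conjugating enzyme for Atg8, 23.4 for Atg4a, 22.9 for Atg10, the conjugating enzyme for Atg12, and 18.5 for Atg8b, a paralog of Atg8a known from the male germline. The paralog pairs of this group thus split: Atg8a and Atg4b were in the IDR list, Atg8b and Atg4a were not.

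**Figure D3:**
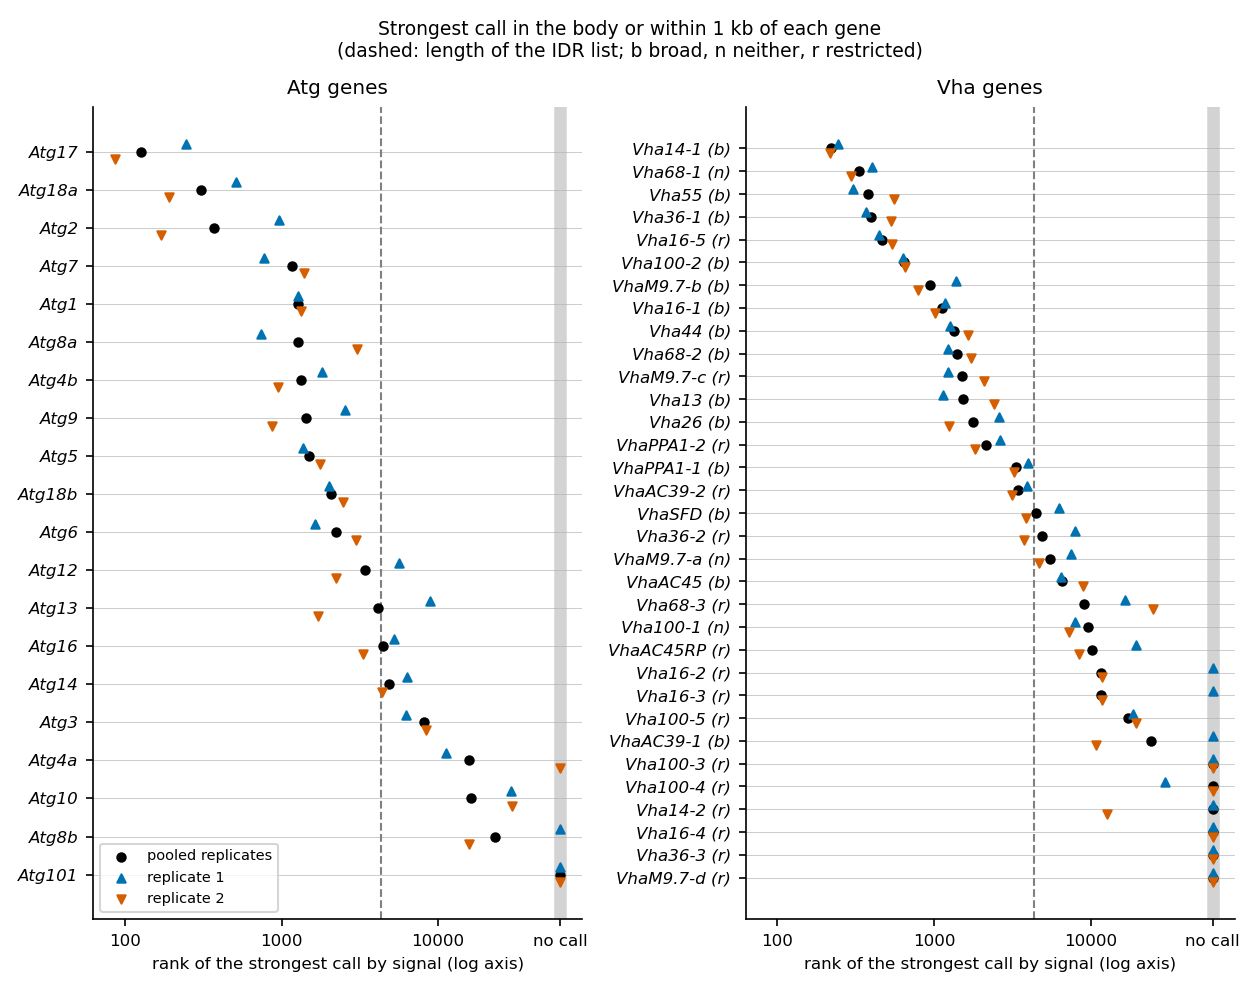
Rank of the strongest call in the body or within 1 kb of each gene (x axis, log scale) in the pooled list and in each replicate, with 20 Atg genes on the left and 33 Vha genes on the right; the dashed line marks the length of the IDR list, 4344, and the grey band holds genes with no call. Pooled calls of 29 members lie left of the line, and 6 of the 7 members with no pooled call are restricted Vha paralogs.

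In the V1 sector, 7 of the 8 broadly expressed subunit genes had an IDR peak, beside 33.4% of all genes. Vha14-1, subunit F, had the highest signal of them (393.5; 206 in replicate 1 and 189 in replicate 2), but its summit lay 820 bp from its start, past its 3′ end, and 308 bp upstream of Gmppa. At Vha55, the single gene for the regulatory subunit B, the summit lay 49 bp upstream of the gene's own TSS with a signal of 304 (184 and 121), in the interval 3R, 12627749 to 12628034. Vha36-1, the rotor subunit D, had 298 (169 and 124) in the 72 bp between its start and that of CG8187, which was nearer. These genes held the 3 highest signals among broadly expressed pump genes.

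The other V1 genes had intermediate signals close to their starts. Vha44, subunit C, had 155 (88.7 in replicate 1 and 63.9 in replicate 2) between its start and that of Hmgs. That summit was 87 bp upstream of Vha44 and 36 bp upstream of Hmgs, the nearer. Vha68-2, the broadly expressed catalytic subunit A, had 151 (90.3 and 62.4) at 143 bp upstream, Vha13, the stalk subunit G, had 144 (94.0 and 49.5) at 76 bp upstream, and Vha26, its partner subunit E, had 132 (53.5 and 77.3) at 204 bp upstream, nearer to noi. VhaSFD, the regulatory subunit H, was the exception. Its best pooled call, 63.1 at rank 4499, lay 10 bp upstream of its TSS, just outside the IDR threshold.

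In the Vo sector and its accessory subunit, 4 of 6 broadly expressed genes had an IDR peak, beside 33.4% of all genes. Each had one within 500 bp of an own TSS, beside 24.6% of all genes. Vha100-2, the large membrane subunit a, had 235 (130 in replicate 1 and 113 in replicate 2), 335 bp before a downstream start and inside the gene's intron, with the start of Vti1b nearer. VhaM9.7-b, the small subunit e, had 191 (83.1 and 101.2) at 358 bp upstream, and 57 bp upstream of COX8 on the other strand. Vha16-1, the proton-carrying ring subunit c, had 173 (92.2 and 88.5) at 151 bp upstream, and further summits in an intron made 3 in all. VhaPPA1-1, the second kind of ring subunit, was lowest at 80.6 (39.3 in each replicate), 112 bp upstream. The broadly expressed genes with no IDR peak were VhaAC45, the accessory subunit, with a best pooled call of 45.5 at 183 bp upstream, and VhaAC39-1, the ring-capping subunit d, with 17.8 at rank 24437. All 14 broadly expressed genes had a pooled call within 500 bp of an own TSS, as had the 3 genes in neither class, beside 55.8% of all genes.

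The paralog families show how the restricted genes differ. In the subunit A family, Vha68-2 and Vha68-3, a paralog known from testis, lie 178 bp apart. Vha68-2 had its IDR peak of 151, while Vha68-3 had best pooled calls of 34.2 past its 3′ end and 22.4 in its coding sequence 286 bp past its start. The third gene, Vha68-1, had 325 (161 in replicate 1 and 163 in replicate 2), higher than Vha68-2, at 84 bp upstream of its start. This peak lies in the 373 bp between Vha68-1 and mTor, the gene for the growth kinase that restrains autophagy, nearer to the start of Vha68-1. In the subunit D family, Vha36-1 had its peak of 298, Vha36-2 had a pooled call of 58.8 past its 3′ end, 31 bp inside the noncoding gene lncRNA:CR43900, and Vha36-3 had no call in any list. The Vha14 pair was Vha14-1 with the peak past its 3′ end and Vha14-2 with no pooled call.

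Of the 5 genes for subunit a, Vha100-2 was the 1 with an IDR peak. Vha100-1, known from neurons, had a best pooled call of 32.8 at 136 bp upstream, nearer to dgt6, and Vha100-5 had 22. Vha100-3 had no call in any list, and Vha100-4, which lies 517 bp from Vha100-2, had no pooled call. Among the Vha16 genes, Vha16-1 and Vha16-5 had IDR peaks. Vha16-2 and Vha16-3, 985 bp apart, shared a single weak pooled call of 28.4, and Vha16-4 had no call in any list. The subunit e family was mixed too: VhaM9.7-a had a pooled call of 53.1 at 135 bp upstream, nearer to CG11586, and VhaM9.7-d had no call in any list. VhaAC45RP, the paralog of the accessory subunit gene, had a best pooled call of 31.4.

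The restricted paralogs with IDR peaks numbered 4, and at 3 of them another gene's TSS was nearest to the summit. At Vha16-5 the signal was 279 (153 in replicate 1 and 123 in replicate 2), 298 bp upstream of Vha16-5 but 4 bp upstream of CG12299. At VhaPPA1-2 it was 114.7 (52.8 and 86.3), past the gene's 3′ end and 96 bp upstream of CG3817. The replicate 2 call of 86.3 had its own summit beyond 1 kb of the gene, and the strongest within 1 kb was 60.0. At VhaAC39-2 the IDR signal was 78.7 (39.5 and 40.1), past the 3′ end and 75 bp upstream of unk. Only at VhaM9.7-c, with 145 (90.2 and 55) at 1 bp upstream, was the nearest TSS the paralog's own, so that by nearest TSS 1 of 16 restricted paralogs was called. The assignment of VhaM9.7-c to the restricted class is the least sure of the 16; without it, 3 of 15 had an IDR peak.

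**Figure D4:**
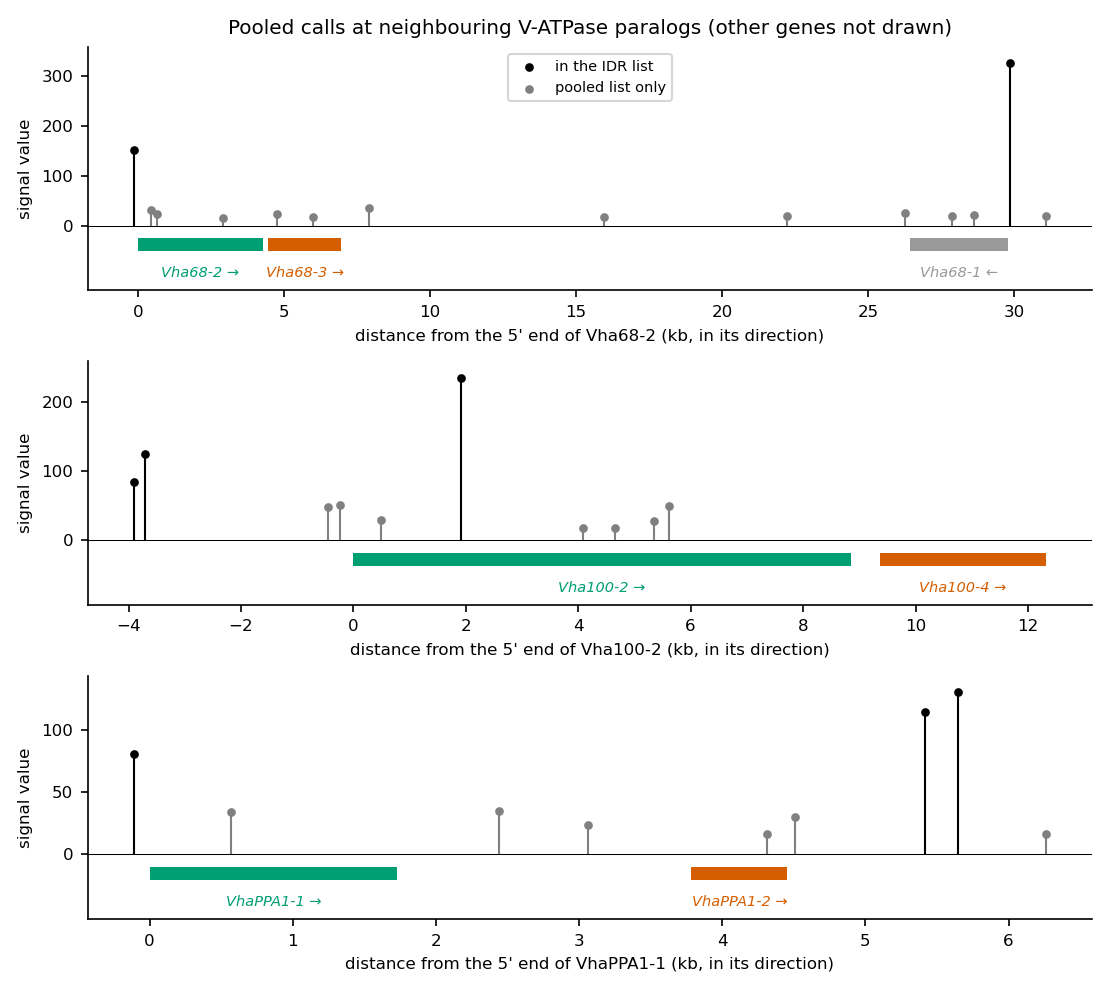
Pooled calls (lines with points, y axis, signal) along 3 regions with neighbouring Vha genes (bars, with arrows for direction), by distance in kb from the 5′ end of the first gene (x axis); black points are in the IDR list, grey ones in the pooled list only, and other genes are not drawn. Vha68-2 and Vha68-1 have IDR peaks of 151 and 325 before their starts, and the calls at Vha68-3 between them reach at most 34.2.

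In the pooled list, a call lay in the body or within 1 kb for 46 of 53 members (86.8%), beside 73.5% of all genes. All but 1 of the Atg genes and 27 of the Vha genes had one. A pooled call within 500 bp of an own TSS was found at 35 members (66.0%), beside 55.8% of all genes. By this rule restricted paralogs were at 3 of 16 (18.8%), namely Vha16-5, VhaM9.7-c and Vha68-3. The 7 members with no pooled call were Atg101, Vha14-2, Vha16-4, Vha36-3, Vha100-3, Vha100-4 and VhaM9.7-d, all but Atg101 restricted paralogs. Replicate 1 had a call at 43 members (81.1%), beside 74.3% of all genes, and replicate 2 at 46 (86.8%), beside 73.7%. Atg101, Vha100-3, Vha16-4, Vha36-3 and VhaM9.7-d had none in any list.

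As medians of the strongest call, the 29 members with an IDR peak had a signal of 156, beside 135 for all 4654 protein-coding genes with one. The median was 173 for the 11 broadly expressed Vha genes with an IDR peak. For the 4 restricted paralogs it was 130, a value that rests on few peaks, 3 of which lay nearest to another gene's TSS. Over best pooled calls, it was 153 for 14 broadly expressed Vha genes, 46.5 for 10 restricted paralogs and 56.4 for the 10244 genes with such a call.

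Both replicates held most of these sites, as they did over the whole IDR list. Of the 39 IDR summits at members, 38 lay in a call of each replicate, beside 4276 of all 4344 IDR summits. The exception among members was that of Atg13. The IDR threshold itself selects reproducible calls, so this count adds no separate support. Among the 28 strongest summits found in both, 14 ranked higher in replicate 1 and 14 in replicate 2. The ratio of the ranks had a median of 1.73, beside 1.56 over the 4276 IDR summits found in both replicates. It was over 4 for 2 of the 28 (7.14%), beside 4.37% of all such summits. These were Atg2, which ranked 966 in replicate 1 and 169 in replicate 2, and Atg8a, which ranked 737 and 3039. Atg7 came next, at ranks 778 and 2316. The order of these 3 genes relative to other members therefore rests on which replicate is read.

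**Figure D5:**
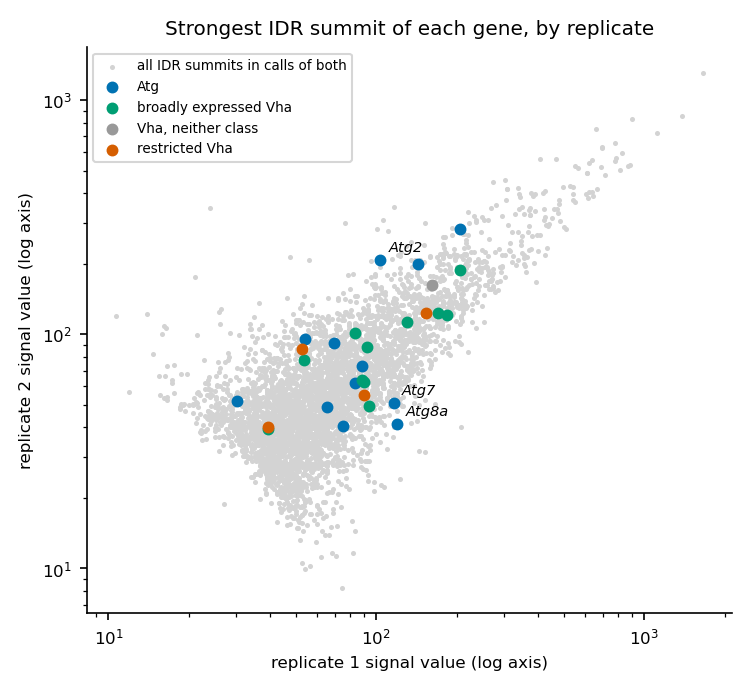
Replicate 1 signal (x axis, log scale) against replicate 2 signal (y axis, log scale) at the strongest IDR summit of the 28 members where both replicates had a call, coloured by class, over the 4276 IDR summits found in both (light grey); Atg13, with no replicate 1 call, is not drawn. Among the labelled genes, Atg2 (103 and 207) lies toward replicate 2, and Atg8a (120 and 41.3) and Atg7 (116 and 50.8) toward replicate 1.

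The searched words were no more than sporadic in the windows around the summits, each of the full length described for the printed ones. TATCGATA was present in 2 of 39 member windows (5.13%), beside 4.01% of all 4344 IDR windows. GGTCACAC was also in 2 (5.13%), beside 2.14%, and TAATTA in 2 (5.13%), beside 6.98%. The windows of Vha68-1 and Atg2, printed above, hold the TAATTA matches. TATCGATA was in the printed window of VhaAC39-2 and at the weaker summit of Vha13. Another gene's TSS was nearest to both summits. It was that of unk for VhaAC39-2, and for Vha13 that of Nup58, 14 bp away, with Vha13 itself 626 bp away. GGTCACAC was in the printed window of Vha68-2 and at the weaker summit of Atg8a. The windows of Vha13, Atg8a and Vha44 are not printed. Nor are those of Vha14-1, Atg18a and Vha36-1, which also had signals above that of Vha16-5. The E-box CACGTG was in 1 window, that of the Vha44 summit, which was nearer to Hmgs (2.56%, beside 1.2%). There it was part of the longer TCACGTGA, the core of the element that Mitf's mammalian relatives bind, which 4 of all 4344 IDR windows held (0.0921%). Each match is a description of the letters and not of a bound site.

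In the promoters, taken from 250 bp before to 50 bp after the most upstream TSS, TATCGATA was present at 8 of 53 members (15.1%), beside 9.37% of all 13945 genes. GGTCACAC was present at 6 (11.3%, beside 7.71%), CACGTG at 4 (7.55%, beside 4.24%), TCACGTGA at 1 (1.89%, beside 0.172%) and TAATTA at 8 (15.1%, beside 20.5%). In counts these differences are of few genes. The mean GC content was 39.7% in the member windows and 37.8% in all IDR windows.

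A list of 51 other genes of autophagy and the lysosome gave 31 with an IDR peak (60.8%), beside the 33.4% of all genes. One lay at an own promoter for 24 of them (47.1%), beside 24.6% of all genes. By group, genes of membrane tethering and fusion with the lysosome were at 10 of 12, genes of the lipid kinase complex and cargo receptors at 5 of 6, V-ATPase assembly factors at 2 of 3, lysosomal enzymes and membrane proteins at 8 of 15, and Mitf with the nutrient-sensing TORC1 genes at 6 of 15. The highest signals were 484 at Sesn, a stress-induced brake on TORC1, 380.5 near Rubicon, an inhibitor of autophagy, and 367 at mtd, a homologue of a V-ATPase binding protein in mammals. Next came mTor, with the same peak of 325 as Vha68-1, then Epg5, a tether for fusion, with 284.5, and Snap29, a fusion SNARE, with 255. The summit counted for Rubicon lay 4351 bp from its start, and the nearest start was that of CAH3. Rubicon had 2 IDR summits, and the weaker lay within 500 bp of an own TSS. In the group of the lipid kinase complex and cargo receptors, ref(2)P was the gene without an IDR peak, and its best pooled call was 30.2. Mitf had no IDR peak and a best pooled call of 56.4. Trpml, the lysosomal calcium channel gene, had no pooled call and was the 1 gene of the 51 without one.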

How the data were processed

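Per the labels and deposited file descriptions, the authors called peaks against a control alignment for each replicate and for both pooled, and made an IDR-thresholded list. Neither the aligner nor the peak caller is given in the sources used here. The deposited narrowPeak lists hold the authors' signal value, a score used here to rank calls, −log10 of a q-value, not used to rank, and a summit offset. Lists on dm3 were not used. Gene models were those of Ensembl, on BDGP6 (identical to dm6), without transposable elements. A gene was called when it, extended by 1000 bp at each end, held a summit, and its promoter when within 500 bp of any of its TSSs. A replicate's value is that of its strongest call holding the IDR summit. Counting was done in Python 3.11.15 and tested on simulated data, and figures were drawn in matplotlib 3.10.9. Members, classes, word list and related genes were chosen with earlier results of these data known, so all counts are descriptions. Named were every member with an IDR peak, the members without one by pooled call, the paralog families, the 6 strongest related genes and the 3 members whose replicate ranks differed most; Mitf, Trpml and members with intermediate pooled calls were added after their values were seen.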

Additional observations from a re-analysis of the deposited data

How the results depend on the processing

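The count of called members depended most on how far from a gene a summit may lie. With no margin, 7 members, 5 Atg, 2 Vha, 2 broadly expressed Vha, 0 restricted Vha and 6 related genes were called. All genes were at 11.7% by that rule. By nearest TSS alone, 15 members, 8 Atg, 7 Vha, 5 broadly expressed Vha, 1 restricted Vha and 20 related genes were called. All genes were at 22.4% by this rule. A summit between a pair of starts then counts for 1 gene. Summits past the 3′ end, as at Vha14-1, VhaPPA1-2 and VhaAC39-2, count for a neighbour, as does the intronic summit of Atg18b. A margin of 5 kb raised restricted paralogs to 7 (43.8%), below the 52.1% of all genes at that margin. The stronger 2172 IDR peaks left 19 related genes (37.3%), beside 20.6% of all genes. The other 43 of 57 alternative values stayed within 1.5 times of the main count. They include counts from the 4344 strongest pooled calls, which are the IDR list itself, so those could not differ. With the strongest calls of 1 replicate in place of the IDR list, counts ranged from 27 to 32 for members, 11 to 14 for Atg, 16 to 18 for Vha, 11 to 12 for broadly expressed Vha, 4 to 5 for restricted Vha, 22 to 26 for members at a promoter and 29 to 33 for related genes. By the rule of the body or 1 kb, all genes were then at 32.9% with replicate 1 and 33.4% with replicate 2. No paired analysis was possible because there was 1 group. The alternatives for related genes and for leaving out VhaM9.7-c were chosen after seeing the data. Depth is unknown, so a missing call does not show that binding was absent.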
